A study of Rattus norvegicus with 2 samples.

Results

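The genes described here make and modify glycosaminoglycan chains, or encode the syndecans and glypicans that carry them at the cell surface. They were chosen by gene symbol, and 62 of the 17049 genes in the table matched. The rule held no measured value, but it and the thresholds below were set with earlier results of these data known. The cells were primary oligodendrocyte precursors (OPCs), the dividing glia that give rise to oligodendrocytes, taken from the brain of wild-type adult rats and grown at 37 °C with 5% CO2 in OGM medium, and their RNA was sequenced. The Aβ group was 1 library from cells given 1 µM amyloid-β, the main plaque peptide of Alzheimer's disease, for 2 days before collection. The control group was 1 library labelled DMSO, a solvent. The protocol text of the control sample also mentions Aβ, so this group rests on its treatment label and title. The labels do not say how many animals or cultures went into a library, and with 1 library per group no difference has a replicate check.

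Glycosaminoglycans are long sugar chains built on proteins in the Golgi. Xylosyltransferases start a chain on serine, and a short linkage region is completed before the chain becomes either heparan sulfate (HS) or chondroitin sulfate (CS). Sulfotransferases and epimerases then set which ligands the chain can bind. Syndecans span the membrane and glypicans are held by a lipid anchor. Their HS chains bind growth factors such as FGFs and help present them to receptors, while CS proteoglycans are abundant in the matrix around OPCs and build up in brain lesions.

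The libraries held 15704932 estimated reads (Aβ) and 15663751 (control). The 62 genes took 0.390% of the reads in Aβ cells, against 0.373% in control cells. Levels are given in TPM, the authors' value corrected for gene length and library total. Of the 62 genes, 50 reached 1 TPM in either library and 35 were at 10 TPM or more in both. Their median level was 12.6 TPM with Aβ, against 12.9 TPM in control cells, against 11.5 and 11.4 TPM over all genes of the table. Xylt1 (140 and 136 TPM in the Aβ and control libraries), Sulf2 (136 and 118 TPM) and Sdc4 (111 and 95.9 TPM) were the most abundant. The bottom of the range held Gpc3, Chst5, Chst8, Chst9, Ndst3, Ndst4, Hs3st6 and Hs6st3, each at 10 reads or fewer over both libraries. Ndst4, Hs3st6 and Hs6st3 were listed at 0 reads in the control and at 1, 1 and 3 reads with Aβ.

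**Figure D1:**
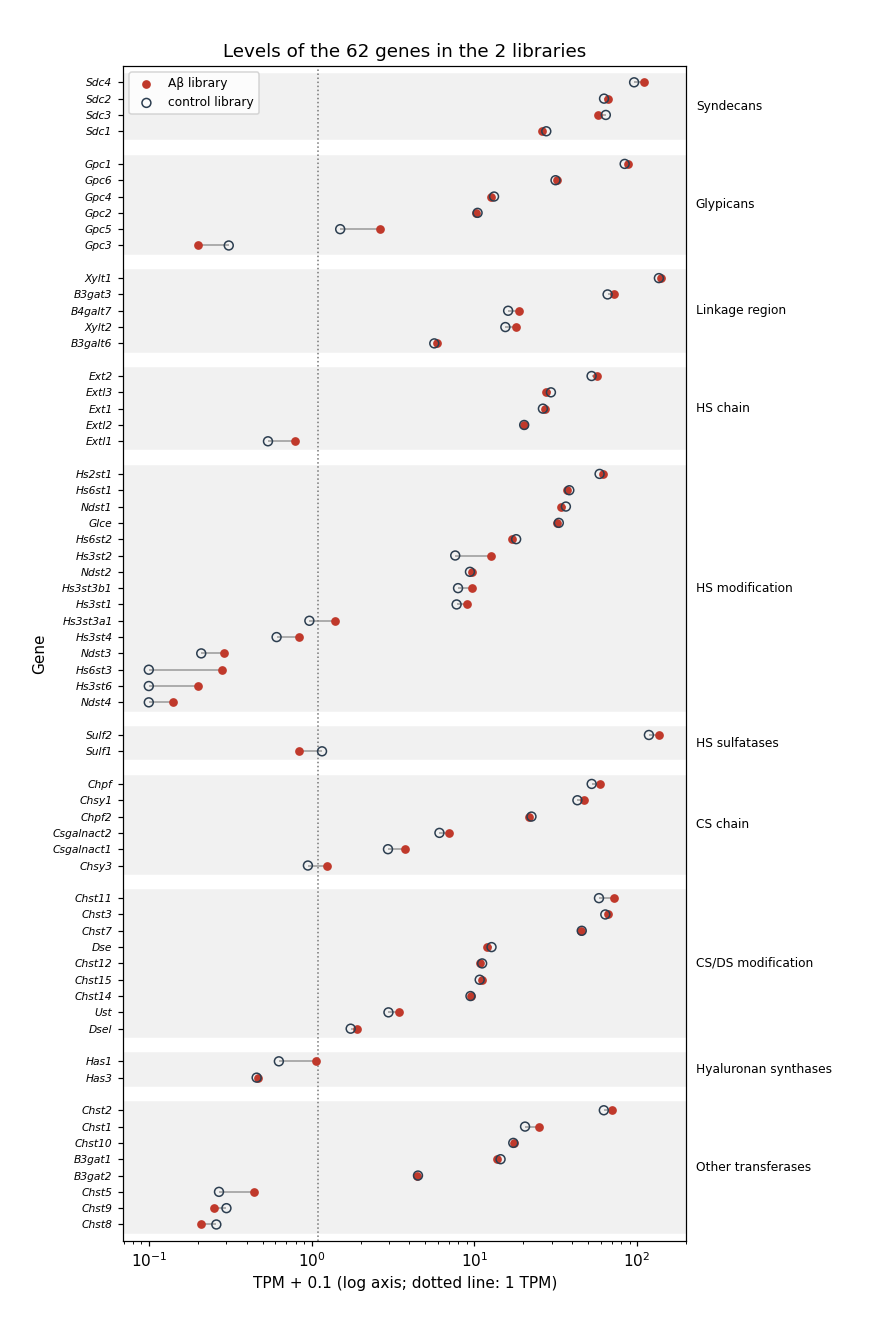
Level of each of the 62 genes in TPM plus 0.1 on a log axis, grouped by role, with filled red points for the Aβ library and open points for the control library. Most pairs of points nearly coincide, and Hs3st2 (12.6 TPM with Aβ, 7.54 TPM in the control) is the widest pair above 5 TPM.

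Aβ was compared with the control through a read ratio, the reads of a gene per total reads in the Aβ library over the same in control cells. Its exact 95% interval covers counting error only and compares these 2 libraries, not the conditions. The interval treats reads as independent, and differences described as beyond counting error rest on that. A gene was called where it had 50 or more reads over both libraries, a ratio at least 25% above 1 or 20% below it, and an interval that excluded 1. In bulk RNA, fewer cells of a type and less RNA per cell cannot be told apart in any of these ratios. Of the 62 genes, 50 had 50 or more reads. The genes Hs3st2 and Gpc5 were called higher with Aβ, 2 of 50 (4%), where 4.21% of all 12518 genes with that many reads were. No member was called lower, against 3.22% of all genes. The share called higher is thus close to that of the whole table.

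Counting intervals placed more of the genes above 1 than below. The interval lay above 1 for 10 of the 50 genes (20%), against 12.2% of all genes, and below 1 for 1 of 50 (2%), against 12.7%. Among the 43 members with 200 or more reads, 9 lay above 1 (20.9%) and 1 below (2.33%), against 13.1% and 13.7% of all genes at that depth. The 10 genes above 1 were Hs3st2, Gpc5, Chst11, Chst1, Xylt2, Sdc4, Sulf2, Chpf, Chst2 and Chsy1, and the gene below 1 was Sdc3. The median ratio of the 50 genes was 1.03-fold, with 31 above 1 and 19 below. Over all 12518 genes with 50 or more reads the median was 1.00-fold, with 6332 above 1 and 6186 below. By TPM with 1 added to both values, 0 of 50 members at 1 TPM or more were 2-fold higher and 0 were 2-fold lower, against 0.501% and 0.493% of all genes.

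**Figure D2:**
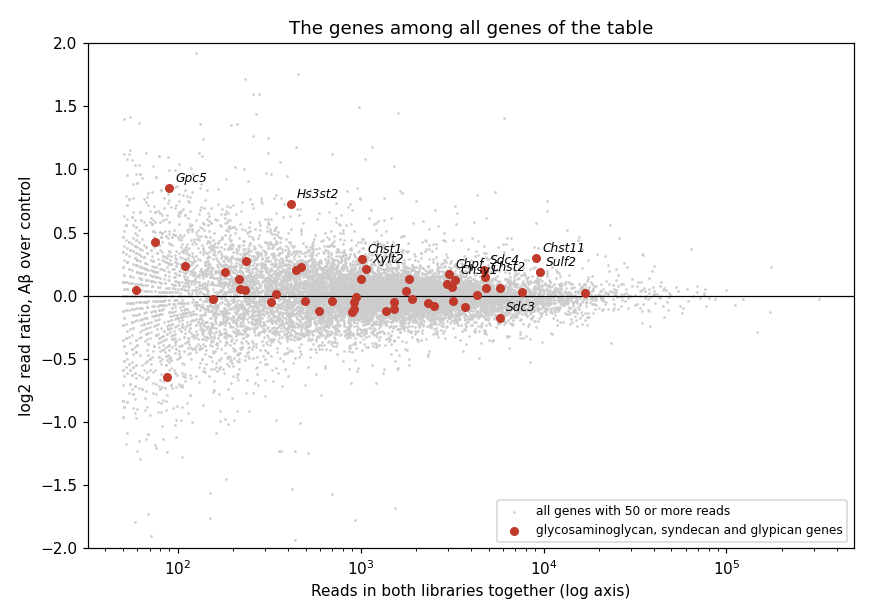
Read ratio, Aβ over control, on a log2 scale against the reads of both libraries together on a log axis, for all genes with 50 or more reads (grey) and the 50 glycosaminoglycan, syndecan and glypican genes (red). Names mark genes whose counting interval excludes 1. Gpc5 and Hs3st2 stand highest among the red points, 8 grey genes lie beyond the axis limits and the 11 genes at 0 reads in either library are not drawn.

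**Figure D3:**
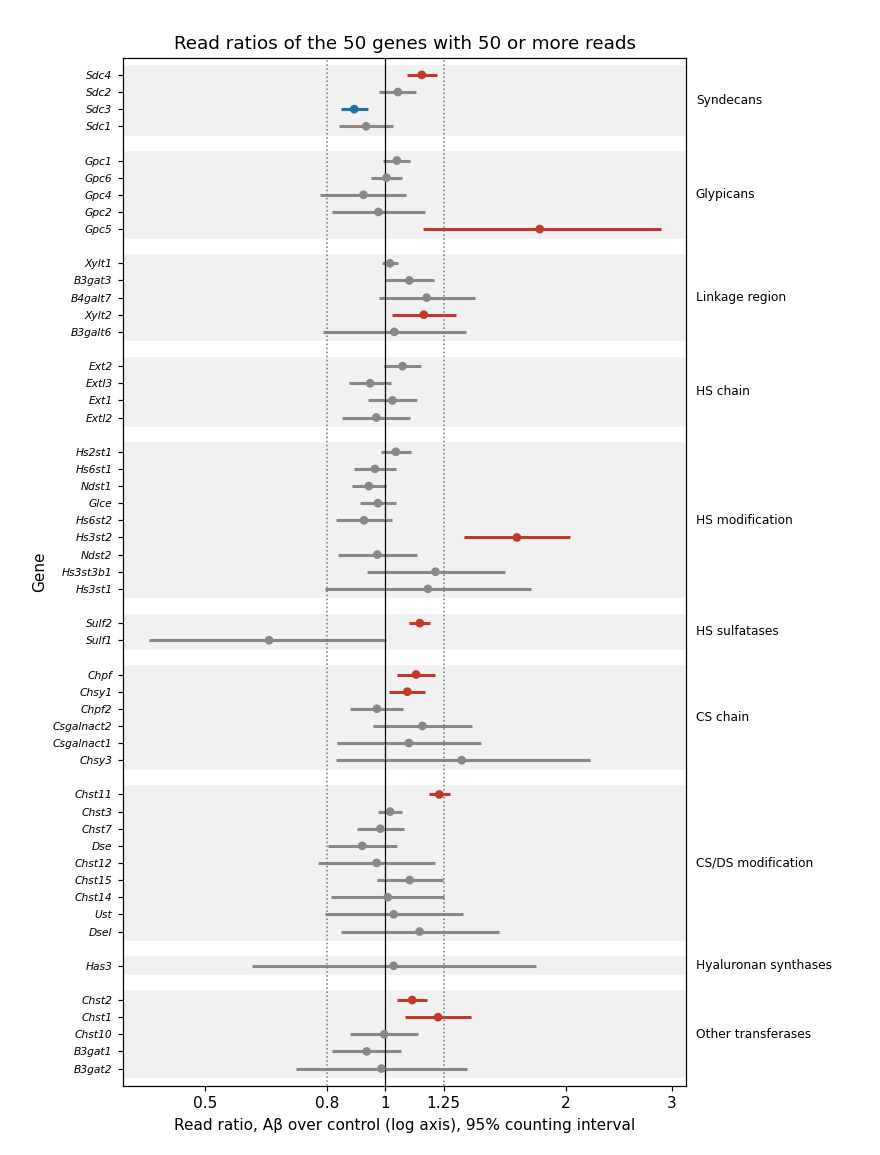
Read ratio, Aβ over control, on a log axis with its 95% counting interval for the 50 genes with 50 or more reads, grouped by role. Red marks intervals above 1, blue below 1 and grey those that include 1, and dotted lines mark ratios 20% below and 25% above 1. Intervals above 1 appear in 8 of the 10 role groups.

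The 4 syndecans went in different directions. Sdc4, the broadly expressed syndecan that also takes part in focal adhesions, was at 111 TPM (2529 reads) in Aβ cells, against 95.9 TPM (2194 reads) in control cells. Its read ratio was 1.15 (95% interval 1.09 to 1.22). Sdc3, the syndecan most typical of the nervous system, was at 57.5 TPM (2726 reads) with Aβ and 64.2 TPM (3065 reads) in the control, a ratio of 0.887 (0.842 to 0.934). Sdc4 was therefore higher and Sdc3 lower with Aβ beyond counting error, though neither passed the 25% or 20% rule.

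Sdc2, a syndecan of mesenchymal and neural cells, was at 66.4 and 62.7 TPM in the Aβ and control libraries (1.05, 0.977 to 1.13). Sdc1, the syndecan of epithelia and plasma cells, was at 25.8 and 27.6 TPM (0.929, 0.838 to 1.03). Both intervals include 1. The syndecans summed to 261 TPM with Aβ, against 250.4 TPM in control cells. Sdc4 held 42.6% of that sum with Aβ and 38.3% in the control, and Sdc3 22.1% and 25.7%. The Sdc4 ratio over the Sdc3 ratio, which does not depend on how the libraries are scaled, was 1.30 (1.20 to 1.40).

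The promoter of Sdc4 is shown because it was the most abundant syndecan and the only one whose interval lay above 1. RefSeq's window of 300 bases (build GRCr8, chr3:173592874-173593173, minus strand, from 250 bases before the start to 50 after) follows 5′ to 3′, with a match to the NF-κB motif in capitals.
Sdc4: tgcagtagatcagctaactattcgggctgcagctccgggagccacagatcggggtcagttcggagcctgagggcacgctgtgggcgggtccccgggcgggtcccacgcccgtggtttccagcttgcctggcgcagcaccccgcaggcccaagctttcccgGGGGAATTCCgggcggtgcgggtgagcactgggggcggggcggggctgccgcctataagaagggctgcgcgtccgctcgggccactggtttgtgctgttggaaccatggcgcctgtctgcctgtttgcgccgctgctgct
A match to the NF-κB motif on either strand was found in 18.8% of the 48 members' windows (9), Sdc1 and Sulf2 among them, and in 9.8% of the 12960 windows of the table's genes. Sdc3 had no such match in its window, and Sdc2 had no window. Of the members with a match, Sdc4, Sulf2, Chpf and Chst2 had intervals above 1. Those of Sdc1, B4galt7, Dsel, Ust and Xylt1 include 1. A link between the motif and the ratios was not tested.

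Glypicans were carried mainly by Gpc1, the main glypican of the adult brain, and Gpc6. Gpc1 was at 88.4 TPM with Aβ, against 83.9 TPM in control cells (read ratio 1.04, 0.992 to 1.10), and Gpc6 at 31.9 and 31.5 TPM (1.00, 0.945 to 1.07). Gpc1 held 60.6% of the summed glypican TPM with Aβ and 59.7% in the control. Gpc1 counts were not whole (2944.19 and 2809.52 reads), which can occur when reads are shared among gene models.

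Gpc4, known for promoting synapse formation when released by astrocytes, was at 12.6 and 13.1 TPM in the Aβ and control libraries (0.919, 0.779 to 1.08). Gpc2, a glypican of developing neurons, was at 10.2 and 10.4 TPM (0.974, 0.813 to 1.17). Neither interval excludes 1. Gpc3, the glypican mutated in an overgrowth syndrome, had 2 and 4 reads.

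Gpc5 was the called glypican. It was at 2.54 TPM (58 reads) in Aβ cells, against 1.40 TPM (32 reads) in control cells, a ratio of 1.81 (1.15 to 2.88). The level is low and the interval is the widest of the 11 that exclude 1. Gpc5 made up 1.74% of the glypican TPM with Aβ and 0.996% in the control. With 1 added to both TPM values the ratio was 1.48, and its rescaled interval then included 1.

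All 5 linkage enzymes had ratios above 1, against 6332 of all 12518 genes with 50 or more reads. Xylt1, the xylosyltransferase that starts the chain, was the most abundant member, at 140 TPM (8472 reads) with Aβ and 136 TPM (8306 reads) in the control, and its ratio was 1.02 (0.987 to 1.05). Its paralog Xylt2 was at 18.0 TPM (575 reads) and 15.4 TPM (495 reads), a ratio of 1.16 (1.03 to 1.31), the only one of the 5 beyond counting error.

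The galactosyltransferases B4galt7 and B3galt6, which add the linkage galactoses, were at 18.8 and 16.1 TPM (1.17, 0.974 to 1.41) and at 5.80 and 5.58 TPM (1.03, 0.786 to 1.36) in the Aβ and control libraries. B3gat3, which adds the closing glucuronic acid, was at 72.3 and 65.9 TPM (1.10, 0.999 to 1.20). The median ratio of the linkage enzymes was 1.10-fold. The kinase Fam20b, which phosphorylates the linkage xylose and so favours chain growth, was at 36.4 and 32.8 TPM (1.09, 1.02 to 1.17), and the xylose phosphatase Pxylp1, which acts against it, at 8.02 and 8.80 TPM (0.908, 0.751 to 1.10).

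The HS polymerases were close to equal. Ext1 and Ext2, which form the complex that extends the chain, were at 27.2 and 26.3 TPM (1.03, 0.935 to 1.13) and at 56.5 and 52.5 TPM (1.07, 0.993 to 1.15) in the Aβ and control libraries. Extl3, which commits a chain to HS, was at 27.5 and 29.5 TPM (0.943, 0.871 to 1.02), with counts that were not whole. Extl2, which can end a chain early, was at 20.2 TPM in both libraries (0.965, 0.847 to 1.10). Extl1 had 22 and 14 reads. No interval in this group excludes 1.

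Enzymes that sulfate or epimerise HS were also near equal, except among the 3-O-sulfotransferases. Ndst1, the main N-deacetylase and N-sulfotransferase, was at 34.1 TPM with Aβ, against 36.5 TPM in control cells (0.938, 0.879 to 1.001). Ndst1 held 77.7% of the Ndst family TPM with Aβ and 79.5% in the control. Ndst2, with counts that were not whole, was at 9.55 and 9.31 TPM (0.969, 0.833 to 1.13).

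Glce, the C5 epimerase that turns glucuronic into iduronic acid, was at 32.3 and 33.0 TPM in the Aβ and control libraries (0.971, 0.905 to 1.04). Hs2st1, the 2-O-sulfotransferase, was at 61.7 and 58.8 TPM (1.04, 0.983 to 1.10). Among 6-O-sulfotransferases, whose product FGF signalling depends on, Hs6st1 was at 37.0 and 38.3 TPM (0.961, 0.885 to 1.04) and Hs6st2 at 16.9 and 18.0 TPM (0.921, 0.828 to 1.03). None of these 6 intervals, Ndst1 and Ndst2 included, lies away from 1.

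Hs3st2, a 3-O-sulfotransferase found mainly in brain, differed most among members with 200 or more reads. It was at 12.6 TPM (259 reads) in Aβ cells, against 7.54 TPM (156 reads) in control cells. The read ratio was 1.66 (1.35 to 2.03) and the TPM ratio 1.67. 3-O-sulfation is the rarest step of HS modification and creates binding sites for particular proteins, antithrombin being the best known. Among the 6 neuron markers in the same libraries, 5 reached 1 TPM and none was at 0. Their summed TPM was 127 with Aβ and 124 in the control. Most of it was Map2, at 105 and 107 TPM in the Aβ and control libraries (0.972, 0.938 to 1.01). Tubb3 had 158 and 132 reads (1.19, 0.941 to 1.52) and Slc17a7 5 and 2 reads. Rbfox3 (39 and 21 reads; 1.85, 1.06 to 3.31) and Snap25 (149 and 99 reads; 1.501, 1.16 to 1.96) were higher in Aβ cells, against Syt1 (27 and 55 reads; 0.490, 0.297 to 0.790) lower, and the part of neurons in the Hs3st2 ratio was not tested.

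The other 3-O-sulfotransferases with 50 or more reads had ratios above 1 and intervals that include 1. Hs3st1, the enzyme of the antithrombin site, was at 8.97 and 7.69 TPM with 59 and 50 reads in the Aβ and control libraries (1.18, 0.794 to 1.75). Hs3st3a1 and Hs3st3b1 have nearly the same catalytic domain and counts that were not whole (12.06 and 129.94 reads with Aβ, 8.06 and 106.94 in the control). Their sums were whole, at 142 and 115 reads (1.23, 0.956 to 1.59). Hs3st4 had 19 and 13 reads. The family summed to 33.2 TPM with Aβ, against 24.5 TPM in control cells, and Hs3st2 held 37.8% of it with Aβ and 30.8% in the control. The Hs3st2 ratio over that of Hs3st1 was 1.41 (0.897 to 2.20), so a difference between these paralogs was not detectable at this depth.

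Promoter windows are shown for Hs3st2, the called enzyme, and for Chpf, a chondroitin polymerase described below, because both hold the cAMP response element TGACGTCA. The motif reads the same on both strands and is in capitals. The Hs3st2 window is chr1:185387213-185387512 on the plus strand and the Chpf window chr9:84416474-84416773 on the minus strand, both from RefSeq in build GRCr8 and of 300 bases, 5′ to 3′.
Hs3st2: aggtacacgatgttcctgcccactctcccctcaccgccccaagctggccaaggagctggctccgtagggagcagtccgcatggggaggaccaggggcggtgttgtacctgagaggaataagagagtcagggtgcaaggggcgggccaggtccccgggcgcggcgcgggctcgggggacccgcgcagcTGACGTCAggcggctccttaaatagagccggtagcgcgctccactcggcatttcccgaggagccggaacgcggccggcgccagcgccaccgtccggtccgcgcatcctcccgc
Chpf: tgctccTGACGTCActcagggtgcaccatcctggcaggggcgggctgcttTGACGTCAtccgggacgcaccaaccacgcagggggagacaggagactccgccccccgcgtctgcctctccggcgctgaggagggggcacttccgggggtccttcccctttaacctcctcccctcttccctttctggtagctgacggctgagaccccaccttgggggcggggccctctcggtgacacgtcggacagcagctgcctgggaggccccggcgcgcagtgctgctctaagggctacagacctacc
Hs3st2 has 1 match and Chpf 2. Has1 was the only other member with this element, which makes 3 of 48 member windows (6.25%), against 2.88% of the 12960 windows of the table's genes. The pattern TGANTCA, the AP-1 motif with any middle base allowed, was in 0 of the 48 windows and in 5.32% of the table's. The GC box GGGCGG, on either strand, was in 32 (66.7%) and in 57.5%.

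**Figure D4:**
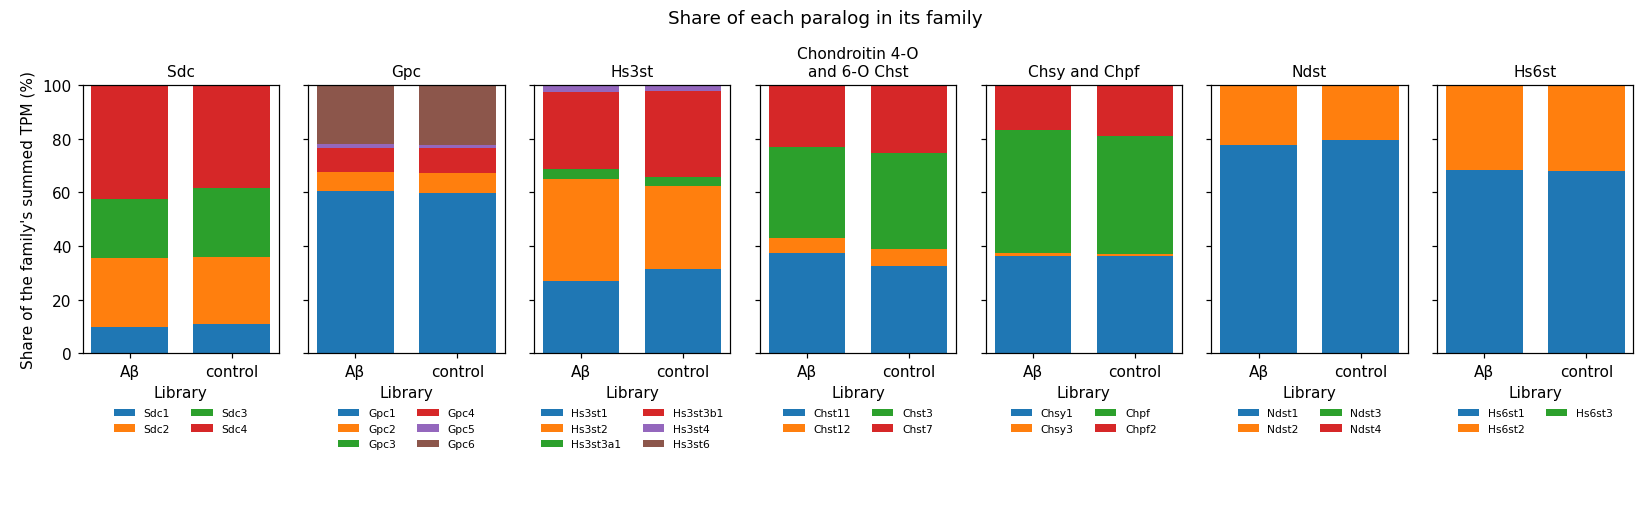
Share in percent of each paralog in the summed TPM of its family, with the Aβ library left of the control library in each panel, for syndecans, glypicans, HS 3-O-sulfotransferases, chondroitin 4-O and 6-O sulfotransferases, chondroitin polymerases, Ndst and Hs6st. The Hs3st2 band spans 37.8% with Aβ and 30.8% in the control, while the Gpc and Hs6st panels look nearly alike in both libraries.

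The extracellular sulfatases, which remove 6-O-sulfate from finished HS chains, were represented almost entirely by Sulf2. Sulf2 was at 136 TPM (5081 reads) with Aβ and 118 TPM (4442 reads) in the control, a ratio of 1.14 (1.10 to 1.19). Sulf1 was at 0.74 TPM (34 reads) and 1.06 TPM (53 reads), a ratio of 0.640 (0.403 to 1.003), so its interval just includes 1. Sulf2 made up 99.5% of their summed TPM with Aβ and 99.1% in the control.

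Chondroitin chain enzymes had a median ratio of 1.11-fold, and 5 of 6 were above 1, against 6332 of all 12518 genes with 50 or more reads. Chpf, the polymerising factor, was at 59.6 TPM (1615 reads) with Aβ and 52.6 TPM (1432 reads) in the control, a ratio of 1.12 (1.05 to 1.21). Chsy1, the chondroitin synthase it pairs with, was at 47.1 TPM (1700 reads) and 42.9 TPM (1559 reads), a ratio of 1.09 (1.01 to 1.17). Both were beyond counting error.

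Chpf2, the paralog of Chpf, was at 21.5 and 22.4 TPM in the Aβ and control libraries (0.968, 0.874 to 1.07). The Chpf ratio over the Chpf2 ratio was 1.16 (1.03 to 1.32). The initiating enzymes Csgalnact2 and Csgalnact1, which place the first N-acetylgalactosamine, were at 6.91 and 6.01 TPM (1.15, 0.952 to 1.40) and at 3.63 and 2.85 TPM (1.09, 0.830 to 1.44). For Csgalnact1 the TPM ratio was 1.27, the widest gap between the scales among members with 50 or more reads. Chsy3 had 43 and 32 reads (1.34, 0.829 to 2.19).

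Among the 9 enzymes that modify CS and dermatan sulfate, Chst11 had the only interval that excludes 1. Chst11, the main chondroitin 4-O-sulfotransferase, was at 72.5 TPM (5044 reads) in Aβ cells, against 58.3 TPM (4091 reads) in control cells. Its ratio of 1.23 (1.18 to 1.28) fell just short of the 25% rule. Chst12, a further 4-O-sulfotransferase, was at 10.8 and 11.1 TPM (0.967, 0.773 to 1.21).

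The 6-O-sulfotransferases were near equal, with Chst3 at 66.3 and 63.8 TPM in the Aβ and control libraries (1.02, 0.973 to 1.07) and Chst7 at 45.0 and 45.7 TPM (0.981, 0.895 to 1.07). The Chst11 ratio over the Chst3 ratio was 1.21 (1.14 to 1.28). Of the TPM of Chst11, Chst12, Chst3 and Chst7 together, Chst11 held 37.2% with Aβ and 32.6% in the control. The order of Chst11 and Chst3 by TPM thus differed between the libraries, with Chst11 above Chst3 with Aβ and below it in the control.

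The remaining CS and dermatan sulfate enzymes had intervals that include 1. Chst15, which makes the doubly sulfated CS-E unit, had 526 and 478 reads in the Aβ and control libraries (1.10, 0.968 to 1.24). The dermatan epimerases Dse and Dsel were at 11.8 and 12.7 TPM (0.915, 0.801 to 1.04) and at 1.81 and 1.64 TPM (1.14, 0.842 to 1.55). Chst14, the dermatan 4-O-sulfotransferase, was at 9.51 and 9.38 TPM (1.01, 0.813 to 1.253), and the uronyl 2-O-sulfotransferase Ust at 3.33 and 2.87 TPM (1.03, 0.792 to 1.35).

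The hyaluronan synthases Has1 and Has3, which extrude an unsulfated chain with no core protein, were low. Has1 had 18 and 10 reads and Has3 30 and 29 reads in the Aβ and control libraries, under 1 TPM in each. Has3 had a ratio of 1.03 (0.598 to 1.78).

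The last group holds transferases of related sugars, not of HS or CS. Chst2 and Chst1, which sulfate N-acetylglucosamine and galactose on keratan sulfate type chains, were both higher with Aβ beyond counting error. Chst2 was at 69.8 TPM (2512 reads) with Aβ and 62.5 TPM (2261 reads) in the control (1.11, 1.05 to 1.17). Chst1 was at 25.1 TPM (557 reads) and 20.4 TPM (454 reads), a ratio of 1.22 (1.08 to 1.39).

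The enzymes of the HNK-1 epitope, a sulfated glucuronic acid of neural adhesion molecules, lay near equality. Chst10, its sulfotransferase, was at 17.5 and 17.3 TPM in the Aβ and control libraries (0.995, 0.874 to 1.13). The glucuronyltransferases B3gat1 and B3gat2 were at 13.7 and 14.4 TPM (0.931, 0.816 to 1.06) and at 4.36 and 4.41 TPM (0.985, 0.709 to 1.37).

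The authors' deposited table of gene ontology terms for genes higher with Aβ names 3 of the 62 genes, Hs3st2, Chst1 and Chst11. Chst1 and Chst11 were not called by the rule used here, and the called Gpc5 stands under none of the authors' terms. The authors' list thus rests on another rule. In the authors' deposited table all 3 stand under 1 term of 282, aminoglycan metabolic process, with 9 of 391 listed genes, a fold enrichment of 3.18 and an adjusted p-value of 0.0393. The further genes it lists there are B4galnt4, Cd44, Cemip, Il1b, Chi3l1 and Ccnd3. That table was made from these libraries, and no enrichment was computed here.

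Other genes of the pathway were counted by the same rules. Of 21 measured core proteins and hyaluronan genes with 50 or more reads, 4 were called higher with Aβ (Cspg4, Srgn, Has2 and Cd44) and 2 lower (Hspg2 and Hapln4), and the interval lay above 1 for 9 and below 1 for 4. Over all genes with that many reads, 4.21% were called higher and 3.22% lower, and 12.2% and 12.7% had intervals above and below 1. The 21 genes' median ratio was 1.10-fold. Cspg4, the NG2 core protein of OPCs, had 540 reads with Aβ and 303 in the control (1.78, 1.54 to 2.05). Srgn, the granule proteoglycan serglycin, had 113 and 71 reads (1.59, 1.17 to 2.17).

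Has2, Cd44 and Cemip, which act on hyaluronan or bind it, were called higher in these lists, as were Cspg4, Srgn and Slc35d2. Hapln4 was called lower. The lists were built to hold hyaluronan genes, and most of these were not called. Over all genes with 50 or more reads, 4.21% were called higher and 3.22% lower. Hyal1, Hyal2, Hyal3, Tmem2, Hapln1 and Hapln3 had intervals that include 1. Core proteins that bind hyaluronan differed in direction, and Ncan, Bcan and Vcan were not called. Ncan was at 353 and 379 TPM in the Aβ and control libraries (read ratio 0.921), with an interval below 1. Bcan had an interval above 1 (ratio 1.097), and the interval of Vcan included 1 (ratio 1.03). Has2, the synthase outside the 62 genes, had 262 reads with Aβ and 204 in the control (1.28, 1.06 to 1.55). Cd44, the hyaluronan receptor, was at 274 and 215 TPM (1.26, 1.22 to 1.30). Cemip, which binds and helps break down hyaluronan, had 555 and 345 reads (1.60, 1.40 to 1.84).

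Hspg2 (perlecan), a basement membrane HS proteoglycan, was lower, with 8.60 TPM in Aβ cells and 10.8 TPM in control cells (0.791, 0.734 to 0.851). Hapln4, a link protein of hyaluronan matrices, had 169 reads with Aβ and 229 in the control (0.736, 0.600 to 0.902).

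Of 17 genes with 50 or more reads that supply sugar nucleotides and sulfate donors, 1 was called higher (Slc35d2) and 0 lower, against 4.21% and 3.22% of all genes. The interval lay above 1 for 6 and below 1 for 2, against 12.2% and 12.7%. Slc35d2, a Golgi nucleotide sugar transporter, had 80 reads with Aβ and 51 in the control (1.56, 1.09 to 2.27). Slc35d1, a further nucleotide sugar transporter, was at 13.5 and 11.5 TPM (1.16, 1.002 to 1.35), and Gnpnat1, an acetyltransferase on the way to UDP-N-acetylglucosamine, had 450 and 390 reads (1.15, 1.003 to 1.32) in the Aβ and control libraries.

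Among the genes with 50 or more reads, 2 genes of sulfate supply had intervals below 1. Slc26a2, the sulfate transporter, had 310 reads with Aβ and 381 in the control (0.812, 0.696 to 0.945), and Papss1, which makes the sulfate donor PAPS and was chosen with its values known, stood at 137 and 151 TPM (0.905, 0.861 to 0.951). The Golgi PAPS transporters Slc35b2 (1.07, 0.989 to 1.15) and Slc35b3 (1.03, 0.909 to 1.17), chosen likewise, had intervals that include 1. Under 50 reads, and so outside these counts, Papss2, the paralog of Papss1, had 11 reads with Aβ and 25 in the control (0.439, 0.195 to 0.925). Impad1, which clears a by-product of sulfation and was also under 50 reads, stood at 0 reads in Aβ cells and at 28 reads (0.43 TPM) in control cells. Its control count was not whole (27.9 reads), which can occur when reads are shared among gene models.

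Enzymes that break glycosaminoglycans down were near equal, with 1 of 17 at 50 or more reads called higher (Cemip) and 0 lower, against 4.21% and 3.22% of all genes. The interval lay above 1 for 2 and below 1 for 0, against 12.2% and 12.7%. The median ratio was 1.02-fold. After Cemip the members farthest from equality were Sgsh, a lysosomal HS sulfatase, on 40 and 47 reads (0.849, 0.543 to 1.32), Arsg, a lysosomal sulfatase, on 356 and 314 reads (1.13, 0.969 to 1.32), and Arsb, the lysosomal sulfatase of dermatan and chondroitin sulfate, on 899 and 807 reads (1.11, 1.01 to 1.22) in the Aβ and control libraries.

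**Figure D5:**
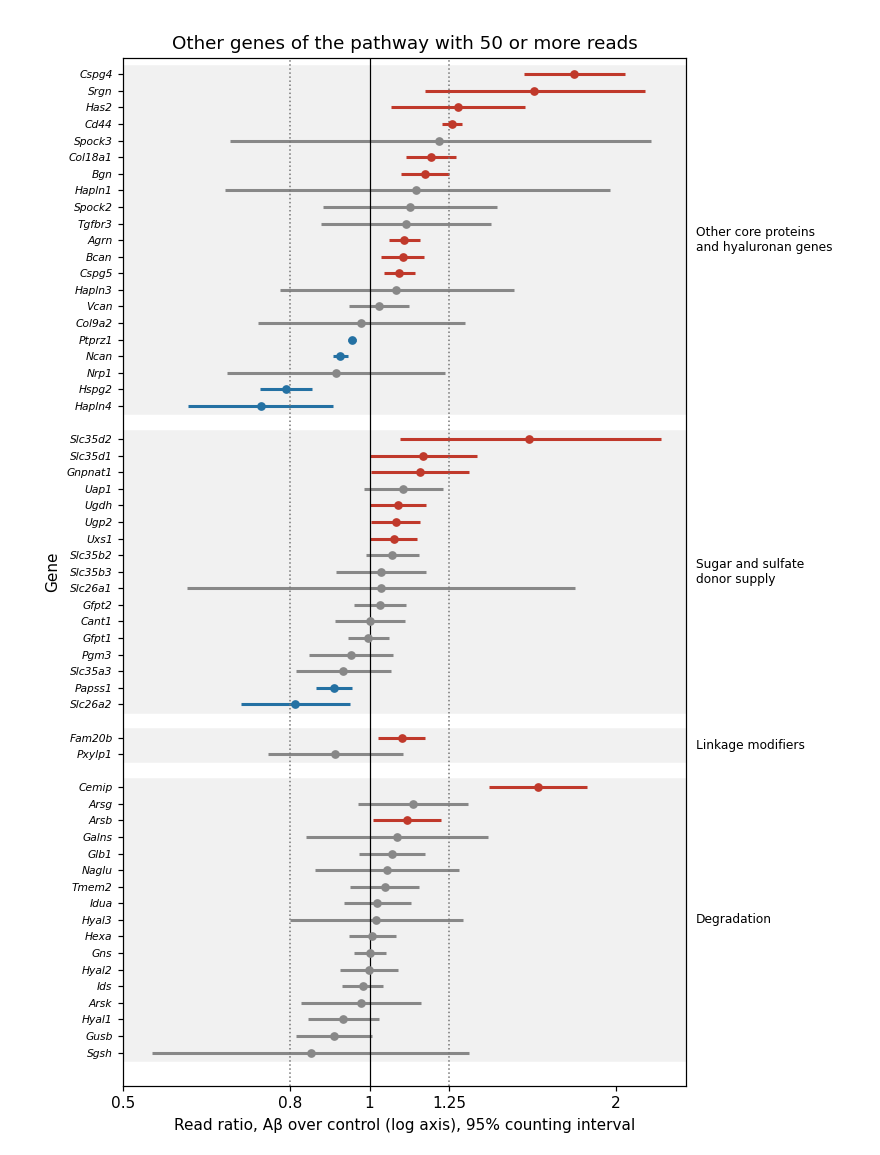
Read ratio, Aβ over control, on a log axis with its 95% counting interval for other genes of the pathway with 50 or more reads, in 4 lists. Red marks intervals above 1, blue below 1 and grey those that include 1, with dotted lines 20% below and 25% above 1. Cspg4, Cemip, Srgn and Slc35d2 lie farthest to the right, and Hapln4 and Hspg2 farthest to the left.

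The cell type label was checked against markers. The OPC genes Olig1 (1421 and 1557 TPM), Olig2 (336 and 375 TPM) and Ptprz1 (866 and 905 TPM) were abundant in the Aβ and control libraries, Pdgfra was at 23.2 and 24.6 TPM, while Sox10 had 22 and 33 reads and Gpr17 4 and 5. All 6 had ratios below 1, whereas Cspg4, the remaining measured OPC marker, was at 6.65 and 3.70 TPM and was called higher (1.78, 1.54 to 2.05). Astrocyte markers were also present, all 6 at 1 TPM or more and summing to 1109 TPM with Aβ, against 1174 TPM in control cells. Of the 6, 5 had ratios below 1, Gfap at 328 and 368 TPM (0.887, 0.861 to 0.914) and S100b at 332 and 362 TPM among them. Gja1 went the other way, at 326 and 307 TPM (1.06, 1.03 to 1.09). The 8 microglia and macrophage markers summed to 135 and 149 TPM. Of these, 6 had 50 or more reads, with 3 ratios above 1 and 3 below. Only Aif1 was called, as lower, at 46.7 and 61.7 TPM (0.778, 0.635 to 0.953). The 5 measured fibroblast markers summed to 3.85 and 7.01 TPM. Col1a1 (26 and 61 reads) and Col1a2 (49 and 134 reads) were called lower. Col3a1 (46 and 48 reads), Pdgfrb (45 and 49 reads) and Dcn (7 and 13 reads) had intervals that include 1. The part of fibroblasts in the Hspg2 ratio was not tested. Markers of Schwann cells (204 and 173.4 TPM, nearly all Pmp22), pericytes (23.3 and 18.8 TPM, mostly Anpep), oligodendrocytes (208 and 219 TPM), endothelium (5.23 and 5.17 TPM) and ependyma (5.45 and 6.19 TPM) completed the check, with Pecam1, Cdh5, Abcc9, Pifo and Ccdc153 at 3 reads or fewer in each library. Astrocytes and microglia also express syndecans and glypicans, and the part of these cells in the ratios was not tested.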

How the data were processed

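RNA-seq reads came from 1 Aβ and 1 control library. The submitters' processing notes name Bowtie2 and the build Rnor_6.0; for the counting tool and gene annotation, none is given in the sources used here. Per gene, the authors' deposited table gives estimated counts, TPM and FPKM, and the deposited column named normalized read count counts as a score and was left out, since it is the estimated count rounded up. FPKM, deposited by the authors, was not used either. The authors' deposited gene ontology table gives fold enrichment ratio, p-value and z score, per the file headers.

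Estimated counts were rounded to whole numbers, and read ratios over library totals got 95% Clopper-Pearson intervals, exact for the conditional binomial (Python 3.11.15, scipy 1.17.1). The intervals treat reads as independent molecules, which they are not, so they may be too narrow even for counting error. With 1 library per group they cover no other spread. The limit that a count of 0 allows, 3 reads, is 0.191 CPM with Aβ and 0.192 CPM in the control. Ratios between paralogs used the conditional odds ratio. TMM factors came from edgeR 4.0.16. The steps were tested on simulated data.

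The members, lists and thresholds were chosen with earlier results of these data known. Named were all syndecans and glypicans, the 3 most abundant members of each role, every called member, and in each further list the 4 farthest from a ratio of 1 on the log2 scale, at 50 or more reads, and every called one; the remaining members with values were named to account for all 62. Some genes of the further lists are not reported here and were left out of their counts. Motifs, promoters shown, the paralog ratios and the Hs3st3 sum were chosen after values were seen. RefSeq promoters (GRCr8, from 250 bases before to 50 after the start) matched 48 members by gene number, and B3galt6, Chst1, Chst14, Csgalnact1, Csgalnact2, Ext1, Ext2, Extl3, Gpc1, Gpc6, Has3, Ndst3, Sdc2 and Sulf1 had no entry matched.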

Additional observations from a re-analysis of the deposited data

How the results depend on the processing

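No paired analysis was possible because each group has 1 library and the labels carry no replicate numbers, and for the same reason no library could be left out. TMM factors and median-of-ratios factors kept the number called (2 higher, 0 lower) and left the sides of all 11 intervals that exclude 1 as they were; median-of-ratios factors put 11 intervals above 1, against 10. The number of members called higher was 1 with the TPM ratio (pseudocount of 1) and 1 with a minimum of 200 reads, against 2, since Gpc5 (58 and 32 reads) dropped out. Its ratio was 1.48 by TPM plus 1. The median log2 ratio of the sulfatases was 0.19 with a minimum of 200 reads, which leaves Sulf2 alone, against −0.23. A pseudocount of 0.1 TPM left the number of members 2-fold apart at 0. The changes in share of Csgalnact1 and Csgalnact2 (2.27 and −2.27 points by TPM) turned to −1.14 and 1.14 points by reads. At under 100 reads over both libraries, as for Gpc5, Sulf1 and Has3, intervals are wide, and differences under 25% could not be detected. Larger ones could also be missed, since the intervals of Sulf1 (0.640, 0.403 to 1.003) and Chsy3 (1.34, 0.829 to 2.19) include 1. Intervals were also wide for some members with more reads, such as Ust (234 reads; 1.03, 0.792 to 1.35) and B3galt6 (218 reads; 1.03, 0.786 to 1.36). A 25% difference could be missed there too, so an interval that includes 1 does not show equality.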
